A study of Homo sapiens with 31 samples.

Results

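Interferon-stimulated genes (ISGs) are the antiviral and regulatory genes that cells switch on when they sense interferon. The 39 examined here were taken from a list of gene symbols, with no measured value in the rule. That list was, however, chosen with earlier results of these data known. All 39 were found in both sets of tables, out of 57992 genes listed at steady state and 43682 listed with actinomycin D. All libraries are labelled PANC-1, a human line from a pancreatic ductal carcinoma, and the study asked how loss of KHSRP changes RNA levels and RNA lifetimes. KHSRP is an RNA-binding protein known for binding AU-rich elements and promoting decay of the transcripts that carry them. The steady-state set compared 3 libraries of KHSRP knockout cells (KO) with 3 libraries labelled NC, whose genotype is given as WT. The actinomycin D set compared libraries labelled KO and NC after treatment with this inhibitor of transcription for 0, 2, 4, 6 or 8 h, with 2 libraries for each label and time. The labels name neither a clone nor separate cultures, so each p-value rests on spread among libraries that may be only technical. Libraries made by miCLIP and PAR-CLIP in WT cells were not analysed here.

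Type I and type III interferons bind different receptors, and both act through the kinases JAK1 and TYK2 on factors that include STAT2. Phosphorylated STAT2 works with IRF9 at the interferon-stimulated response element (ISRE) in the promoters of most of the genes described here. Many ISGs also keep a low level in unstimulated epithelial and tumour cells. Their products sense viral RNA, block translation or membrane fusion, degrade RNA, or tag proteins with ISG15.

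The targeted transcript was lower in both sets. KHSRP was at 9.49 to 10.6 CPM (counts scaled to a common library size by trimmed means) in steady-state KO libraries, against 64.4 to 65.7 CPM in NC libraries. In the actinomycin D set it was at 134 to 157 CPM in the 10 libraries labelled KO, against 375 to 460 CPM in the 10 labelled NC. The labels of the actinomycin D set separated more than KHSRP: CDKN2A had 0 counts in each library labelled KO and 2728 to 5476 counts in each labelled NC. At steady state it had 6 counts in each KO library and 0 in each NC library. CDKN2A is known to be deleted in PANC-1, and whether the libraries labelled NC came from this line was not tested. Of the epithelial keratins, KRT19 was at 372 to 415 CPM in libraries labelled KO against 0 to 0.672 CPM in those labelled NC, and KRT7 went the other way, at 8.61 to 19.1 CPM against 541 to 961 CPM. KRT8 and KRT18 were higher in the KO label at 0 h by 0.67 (SE 0.03) and 0.42 (SE 0.03) on the log2 scale. In the steady-state set KRT19 was at 308 to 354 CPM in KO libraries and 301 to 345 CPM in NC libraries, and KRT7 at 4.71 to 5.39 CPM and 3.43 to 4.41 CPM. All 6 epithelial markers looked for reached 1 CPM in the steady-state groups and in the KO label, and 4 did so in the NC label. Summed over 8 markers of immune cells, libraries labelled KO held 114 to 249 CPM, nearly all of it CD68, and libraries labelled NC 10.4 to 15.2 CPM; the leukocyte gene PTPRC was at 0 in every library labelled KO. Differences between the actinomycin D labels are therefore given as differences between libraries labelled KO and NC, and the part played by KHSRP in them cannot be told apart from that of the other differences. Depth ran from 33706181 to 43278138 counts per steady-state library, and from 19177934 to 25768060 per actinomycin D library.

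Promoter sequences are shown first because the ISRE is what most of these genes share. Windows of 300 bases, running from 250 before to 50 after the annotated start, came from RefSeq (GRCh38.p14) and covered 31 of the 39 genes. IFIT2, IFITM2, MX2, OAS2, OASL, IRF7, USP18 and TRIM22 were not covered. The ISRE core was searched as TTTCNNTTTC on both strands, with overlapping matches allowed. It was present for 23 of the 31 genes (74.2%), against 1195 of the 27305 genes with a window (4.38%). The genes without it were STAT2, IRF1, IRF9, HERC6, OAS1, SAMD9L, XAF1 and IFI35. A match describes the letters of the window and does not show that a factor binds there. Printed below, 5′ to 3′ on the gene's own strand with the ISRE core in capitals (its reverse complement where it lies on the opposite strand), are IFIT1 (chr10:89392373-89392672, + strand), EIF2AK2 (chr2:37156931-37157230, − strand), OAS3 (chr12:112938224-112938523, + strand), ISG15 (chr1:1013247-1013546, + strand) and BST2 (chr19:17405581-17405880, − strand). These 5 were chosen because their transcripts gave the contrasting patterns described below although each window holds the core.
IFIT1: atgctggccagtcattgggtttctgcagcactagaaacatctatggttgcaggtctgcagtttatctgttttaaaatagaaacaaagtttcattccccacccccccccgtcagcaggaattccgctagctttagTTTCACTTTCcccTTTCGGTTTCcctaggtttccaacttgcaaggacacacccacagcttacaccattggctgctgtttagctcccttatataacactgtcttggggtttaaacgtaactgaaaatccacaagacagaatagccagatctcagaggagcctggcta
EIF2AK2: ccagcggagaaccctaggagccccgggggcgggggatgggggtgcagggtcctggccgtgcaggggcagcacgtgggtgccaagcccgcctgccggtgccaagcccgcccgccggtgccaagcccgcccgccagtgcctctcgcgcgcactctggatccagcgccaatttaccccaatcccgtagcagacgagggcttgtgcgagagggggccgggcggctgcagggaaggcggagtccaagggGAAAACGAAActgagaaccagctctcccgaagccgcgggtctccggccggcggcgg
OAS3: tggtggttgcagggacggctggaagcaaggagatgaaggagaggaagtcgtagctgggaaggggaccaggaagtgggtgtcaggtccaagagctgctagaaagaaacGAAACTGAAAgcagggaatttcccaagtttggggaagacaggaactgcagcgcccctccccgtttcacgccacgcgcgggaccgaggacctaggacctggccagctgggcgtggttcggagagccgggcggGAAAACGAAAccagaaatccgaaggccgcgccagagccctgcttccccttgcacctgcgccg
ISG15: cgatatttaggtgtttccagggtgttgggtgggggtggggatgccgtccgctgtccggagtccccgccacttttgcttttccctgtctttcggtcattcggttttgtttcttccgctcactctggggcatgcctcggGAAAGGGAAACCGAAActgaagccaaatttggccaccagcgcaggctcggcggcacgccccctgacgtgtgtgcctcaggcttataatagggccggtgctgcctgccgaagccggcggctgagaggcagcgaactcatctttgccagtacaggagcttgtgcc
BST2: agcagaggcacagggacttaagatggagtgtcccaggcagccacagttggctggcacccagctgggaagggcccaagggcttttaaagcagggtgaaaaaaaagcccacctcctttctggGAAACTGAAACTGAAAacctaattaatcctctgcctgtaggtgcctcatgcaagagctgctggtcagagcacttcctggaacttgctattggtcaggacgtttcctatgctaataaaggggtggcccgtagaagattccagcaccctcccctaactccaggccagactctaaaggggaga
In IFIT1 the cores start 116 and 103 bases before the annotated start, in ISG15 113 and 107 bases before it, and in BST2 130 and 124 bases before it. OAS3 has cores 143 and 12 bases before the start, and EIF2AK2 has 1 core 6 bases before it.

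At steady state, KHSRP knockout cells had lower levels of many ISGs and higher levels of few. Of 35 genes with enough counts to test, 17 fell in KO cells, 3 rose and 15 did not pass the threshold (edgeR quasi-likelihood test, Benjamini-Hochberg adjusted p under 0.05 over all 17240 genes). Over all genes tested, 26.3% fell, 24.4% rose and 50.6% passed in either direction. The median log2 change of KO over NC was -0.45 over the 35 genes, beside 0.02 over all genes. The genes that fell were RNA sensors, the kinase EIF2AK2, the 4 IFIT genes, the PARP9 group and several effectors, and the transcription factors of the pathway were not among them. IFI44, IFI44L, HERC6 and RSAD2 had too few counts to be tested, with at most 0.215 CPM in any of the 6 libraries. Summed over all 39 genes, KO libraries held 616 to 644.3 CPM and NC libraries 736.1 to 753.9 CPM. In RNA from whole cultures, fewer cells expressing a gene and less RNA per cell cannot be told apart.

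**Figure D1:**
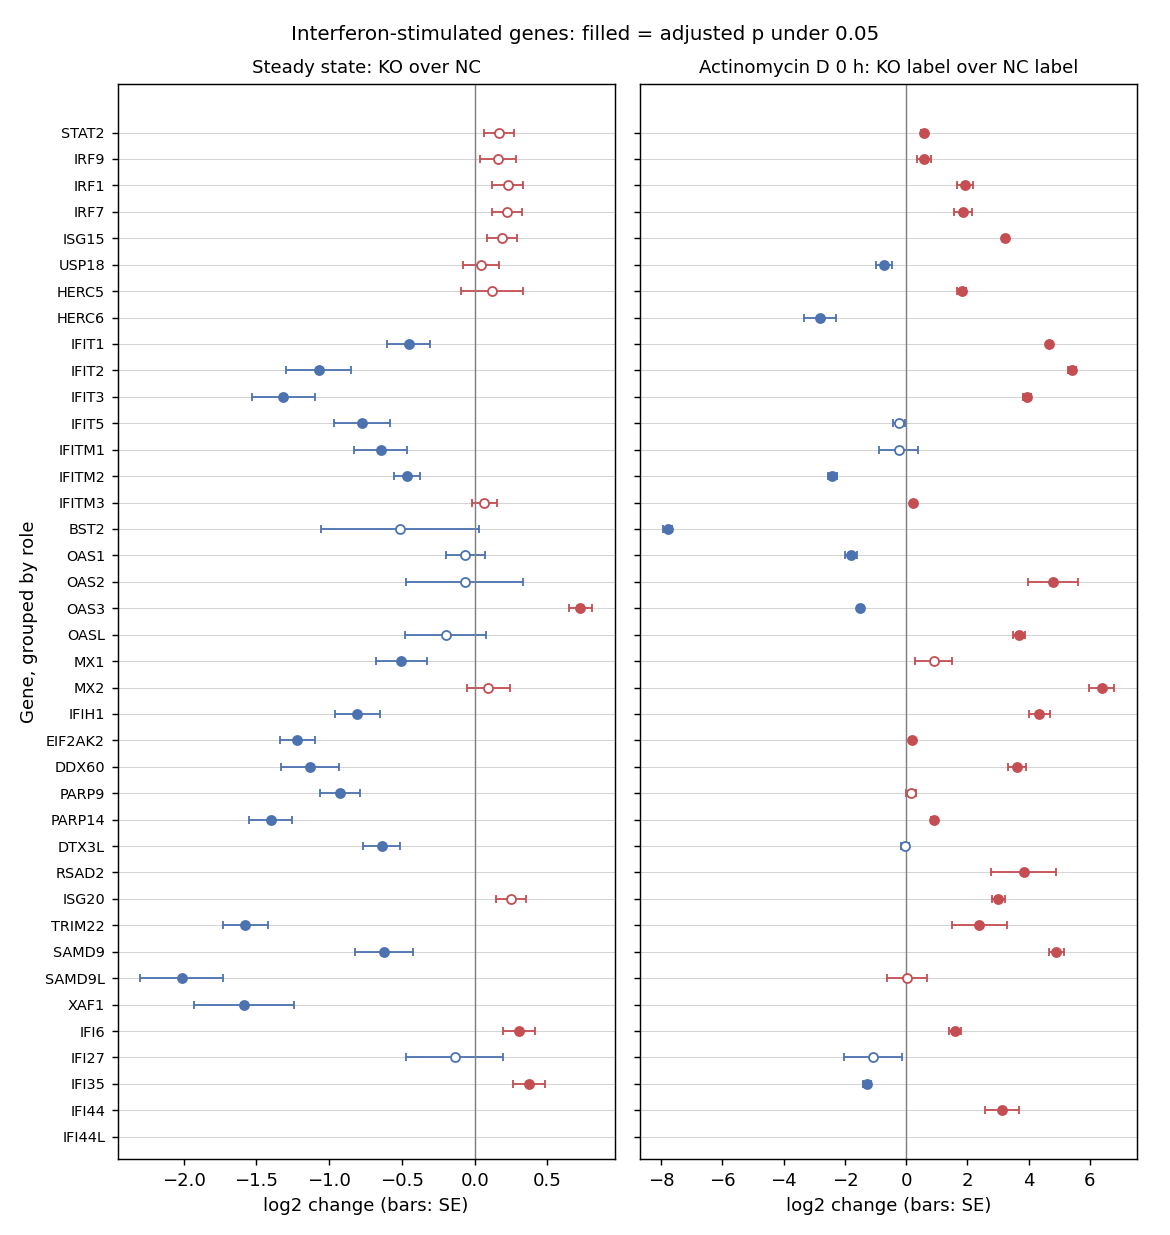
Log2 change of each interferon-stimulated gene, with bars for its standard error, in KO over NC libraries at steady state (left panel, n = 3 each) and in libraries labelled KO over those labelled NC at 0 h of actinomycin D (right panel, n = 2 each); filled points passed an adjusted p of 0.05, red marks positive and blue negative values, and the 2 horizontal scales differ. Most filled points lie left of 0 at steady state and right of 0 at 0 h; XAF1 is not drawn at 0 h because its counts were 0 in both libraries labelled NC, and other genes without a point were not tested.

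Among the transcription factors, none of the 4 passed the threshold at steady state. STAT2, a factor with a strong activating domain, was at 23.0, 27.9 and 26.7 CPM in KO libraries and at 21.4, 22.5 and 25.2 CPM in NC libraries, so the groups overlapped. IRF1, a factor that binds ISRE-like sites and responds to interferon gamma, was at 55.4, 66.0 and 72.8 CPM in KO libraries, against 52.0, 58.9 and 54.9 CPM in NC libraries. IRF7 was at 20.5, 21.9 and 24.1 CPM in KO libraries, against 18.4, 21.1 and 17.4 CPM in NC libraries. IRF9, the DNA-binding partner of STAT2, was at 5.97, 6.32 and 7.81 CPM in KO libraries and 6.16, 6.04 and 5.85 CPM in NC libraries, and both groups overlapped as well. The log2 changes were 0.17 for STAT2 (SE 0.10), 0.16 for IRF9 (SE 0.13), 0.23 for IRF1 (SE 0.11) and 0.22 for IRF7 (SE 0.10), with edgeR adjusted p-values of 0.190, 0.314, 0.100 and 0.0930. All 4 estimates were above 0. Without KO replicate 1, STAT2, IRF1 and IRF7 passed the threshold as higher, with log2 changes of 0.26, 0.34 and 0.29. IRF7 also passed without NC replicate 2, at 0.29 (edgeR adjusted p = 0.0485). Single libraries thus decided those calls.

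Of the ubiquitin-like modifier ISG15, its ligase HERC5, its protease USP18 and HERC6, the neighbour of HERC5, the 3 genes tested at steady state did not pass. HERC6 had too few counts to test. UBA7, the enzyme that activates ISG15, was at 4.68 to 5.69 CPM in KO libraries against 6.39 to 8.04 CPM in NC libraries and fell by 0.47 on the log2 scale (SE 0.14, edgeR adjusted p = 0.0169). ISG15 itself was at 90.6, 105 and 108 CPM in KO libraries and 87.8, 98.3 and 80.7 CPM in NC libraries, and the groups overlapped (log2 change 0.19, SE 0.10, edgeR adjusted p = 0.142). Without KO replicate 1 it was called higher at 0.28. HERC5, the main ligase for ISG15 in human cells, had a log2 change of 0.12 (SE 0.21), and USP18, the protease that removes ISG15 and also damps the type I receptor, 0.04 (SE 0.13). Reads of USP18 may be shared with its near-identical copies elsewhere in the genome, and how the authors' counting split them was not stated.

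All 4 IFIT genes fell. Their products bind the altered 5′ ends of viral RNA or act as partners of those that do, and the genes lie in 1 cluster on chromosome 10 (chr10:91061803-91180754, hg19), with 18726 bases between IFIT2 and IFIT3, 51655 between IFIT3 and IFIT1 and 8081 between IFIT1 and IFIT5. IFIT3 was at 1.0, 0.757 and 0.668 CPM in KO libraries and at 2.28, 1.93 and 1.80 CPM in NC libraries, a log2 change of -1.31 (SE 0.21, edgeR adjusted p = 0.000866). IFIT2 was at 5.14, 2.49 and 3.0 CPM in KO libraries, against 7.97, 7.21 and 6.98 CPM in NC libraries, a log2 change of -1.07 (SE 0.22, edgeR adjusted p = 0.00324). In both genes every KO library lay below every NC library. IFIT5 was at 24.5, 13.1 and 15.1 CPM in KO libraries and 30.7, 28.9 and 29.9 CPM in NC libraries (log2 change -0.77, SE 0.19, edgeR adjusted p = 0.00785). KO replicate 1 was the KO library nearest to the NC libraries in all 4 genes. IFIT1, at 20.6, 13.3 and 14.4 CPM in KO libraries and 21.8, 21.9 and 22.2 CPM in NC libraries, had a log2 change of -0.45 (SE 0.15, edgeR adjusted p = 0.0269). That call was lost on leaving out KO replicate 2 or 3 or any NC library, with edgeR adjusted p-values of 0.0505 to 0.106.

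The sensors of double-stranded RNA fell together with the RNA-activated kinase. IFIH1 (MDA5) detects long double-stranded RNA in the cytoplasm, and EIF2AK2 (PKR) halts translation when it binds such RNA. EIF2AK2 (chr2:37326353-37384123, hg19, − strand) was at 72.8, 52.0 and 59.3 CPM in KO libraries and at 140, 134 and 154 CPM in NC libraries. The KO mean was 61.4 ± 10.6 CPM and the NC mean 142.7 ± 10.1 CPM (SD, 3 libraries each). The groups were far apart, and the log2 change was -1.22 (SE 0.12, edgeR adjusted p = 6.91e-05). Under the alternative settings that change ran from -1.34 to -0.57. IFIH1 was at 6.23, 4.08 and 5.23 CPM in KO libraries and 8.90, 8.26 and 9.95 CPM in NC libraries (log2 change -0.81, SE 0.15, edgeR adjusted p = 0.00197). DDX60, a helicase reported to assist RNA sensing, was at 6.83, 3.42 and 4.91 CPM in KO libraries and 11.3, 11.5 and 10.2 CPM in NC libraries (log2 change -1.13, SE 0.20, edgeR adjusted p = 0.00133). No KO library reached an NC library in any of the 3 genes. Exons of EIF2AK2 overlap 35 bases of GPATCH11 on the opposite strand, and no source used here says whether the counting used strand.

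PARP14, PARP9 and DTX3L, which add ADP-ribose or ubiquitin to proteins in the interferon and DNA damage responses, also fell. PARP14 (chr3:122399686-122449687, hg19, + strand) was at 29.0, 19 and 19.6 CPM in KO libraries and at 59.0, 61.1 and 58.1 CPM in NC libraries. The KO mean was 22.5 ± 5.63 CPM and the NC mean 59.4 ± 1.58 CPM (SD, 3 libraries each). Its log2 change was -1.40 (SE 0.15, edgeR adjusted p = 8.87e-05), and ran from -1.61 to -0.87 under the alternative settings. PARP9 was at 5.60, 4.25 and 4.17 CPM in KO libraries and 7.94, 9.11 and 9.40 CPM in NC libraries, a log2 change of -0.92 (SE 0.14, edgeR adjusted p = 0.000543). DTX3L, which shares a bidirectional promoter region with PARP9 and forms a complex with its product, had a log2 change of -0.64 (SE 0.12, edgeR adjusted p = 0.00224). PARP9 and DTX3L overlap by 175 exon bases on opposite strands, which is 1.9% of PARP9 exons and 3.0% of DTX3L exons.

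Of the other effectors, SAMD9L, TRIM22, XAF1 and SAMD9 fell, and the nuclease gene ISG20 did not pass. SAMD9L and SAMD9, neighbours on chromosome 7 that restrict poxviruses and translation, are 12077 bases apart (hg19). SAMD9L was at 0.230, 0.220 and 0.346 CPM in KO libraries and 1.17, 1.0 and 1.11 CPM in NC libraries, a log2 change of -2.02 (SE 0.28, edgeR adjusted p = 0.000376), at low counts in both groups. TRIM22, a ubiquitin ligase active against several viruses, was at 1.66, 1.47 and 1.22 CPM in KO libraries and 4.38, 4.15 and 4.41 CPM in NC libraries, with no overlap (log2 change -1.58, SE 0.15, edgeR adjusted p = 6.59e-05). XAF1, a pro-apoptotic antagonist of XIAP, had a log2 change of -1.58 (SE 0.34), at 0.161 to 0.258 CPM in KO libraries against 0.515 to 0.788 CPM in NC libraries. SAMD9 changed by -0.62 (SE 0.20, edgeR adjusted p = 0.0243), and its call was lost without KO replicate 3, NC replicate 1 or NC replicate 3.

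**Figure D2:**
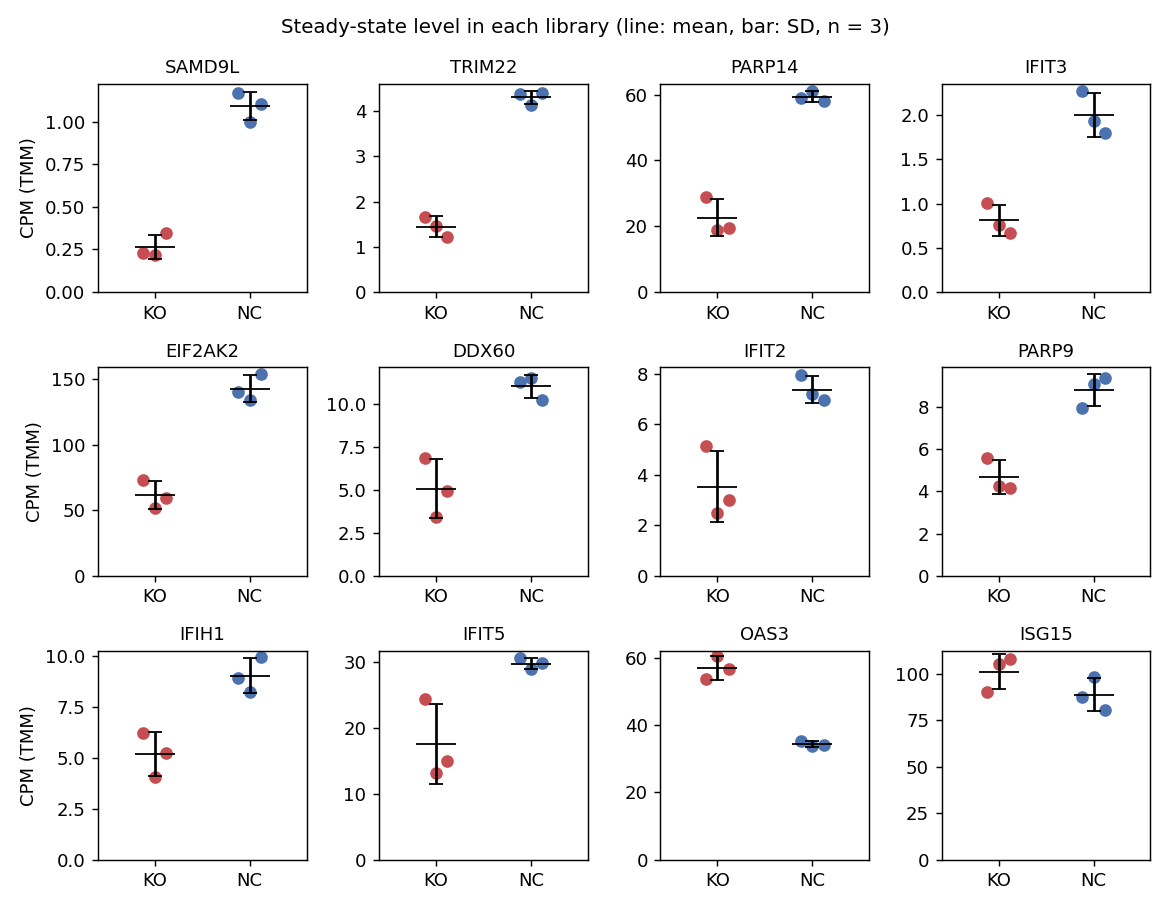
Steady-state level (CPM, linear axes from 0) of 12 interferon-stimulated genes in each library, KO left and NC right, with points for libraries, a line for the mean and a bar for the SD (n = 3). In the 10 panels from SAMD9L to IFIT5 all KO points lie below all NC points, OAS3 shows the opposite order, and in ISG15 the groups overlap.

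The membrane-bound restriction factors and the OAS genes were divided. IFITM1 and IFITM2, which block fusion of viral and cell membranes, had log2 changes of -0.65 (SE 0.18) and -0.46 (SE 0.09) and fell, while IFITM3 did not pass (0.07, SE 0.09, edgeR adjusted p = 0.543). IFITM1 was at 1.0, 1.10 and 1.11 CPM in KO libraries and 1.49, 1.86 and 1.68 CPM in NC libraries (edgeR adjusted p = 0.0154). IFITM3, the most abundant of the 3, was at 97.9, 114 and 115 CPM in KO libraries and 106, 107 and 98.9 CPM in NC libraries, which overlapped. IFITM2 was at 9.10, 9.06 and 8.64 CPM in KO libraries and 12, 12.2 and 12.8 CPM in NC libraries, without overlap (edgeR adjusted p = 0.00197). The IFITM genes are near-copies of each other, so reads may be shared between them. The OAS enzymes make the 2′-5′ oligoadenylates that activate RNase L. OAS3 (chr12:113376279-113411056, hg19, + strand) was at 53.6, 60.6 and 56.6 CPM in KO libraries and 35.3, 33.8 and 34.1 CPM in NC libraries. The KO mean was 56.9 ± 3.51 CPM and the NC mean 34.4 ± 0.796 CPM (SD, 3 libraries each). It rose by 0.73 (SE 0.08, edgeR adjusted p = 0.000100), and it was the gene of the list that differed most in that direction. Its chromosome 12 neighbours did not pass the test, at -0.06 for OAS1 (SE 0.13), 5255 bases from OAS3, and -0.07 for OAS2 (SE 0.40), 5268 bases from it. BST2 (tetherin), which holds budding virus at the cell surface, was at 0.316, 0.708 and 0.323 CPM in KO libraries and 0.234, 1.17 and 0.489 CPM in NC libraries, too few counts to separate the groups.

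IFI35 and IFI6 were the other 2 genes called higher at steady state. IFI6, a small membrane protein that inhibits replication of flaviviruses, had a log2 change of 0.30 (SE 0.11, edgeR adjusted p = 0.0387), and IFI35, a partner of NMI, 0.37 (SE 0.11, edgeR adjusted p = 0.0167). Both calls were lost without KO replicate 3, NC replicate 1 or NC replicate 3, and IFI6 also without KO replicate 2. MX1, a dynamin-like GTPase against influenza viruses, had a log2 change of -0.50 (SE 0.18, edgeR adjusted p = 0.0369), a call lost with DESeq2 (adjusted p = 0.0582) and without KO replicate 1, 2 or 3 or NC replicate 1 or 2. Counted by separation alone, 16 genes had every KO library below every NC library and 3 had every KO library above (over all genes 29.6% and 30.4%).

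Transcript length moved with the steady-state calls. In the deposited tables the 17 genes that fell had transcripts of 598 to 9225 bases (median 3451), the 15 that did not pass had 552 to 3285 bases (median 1609), and the 3 that rose had 840 to 4785 bases (median 1187). When offsets followed length, 15 genes fell and 1, OAS3, rose. The share of all genes called under these offsets is not given here, so these counts are not read as particular to the list. Under these offsets DTX3L had a log2 change of -0.21 (edgeR adjusted p = 0.123) and SAMD9 -0.13 (edgeR adjusted p = 0.509), and the calls of IFI35 and IFI6 were also lost. The part of length in the result was not tested beyond this.

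**Figure D3:**
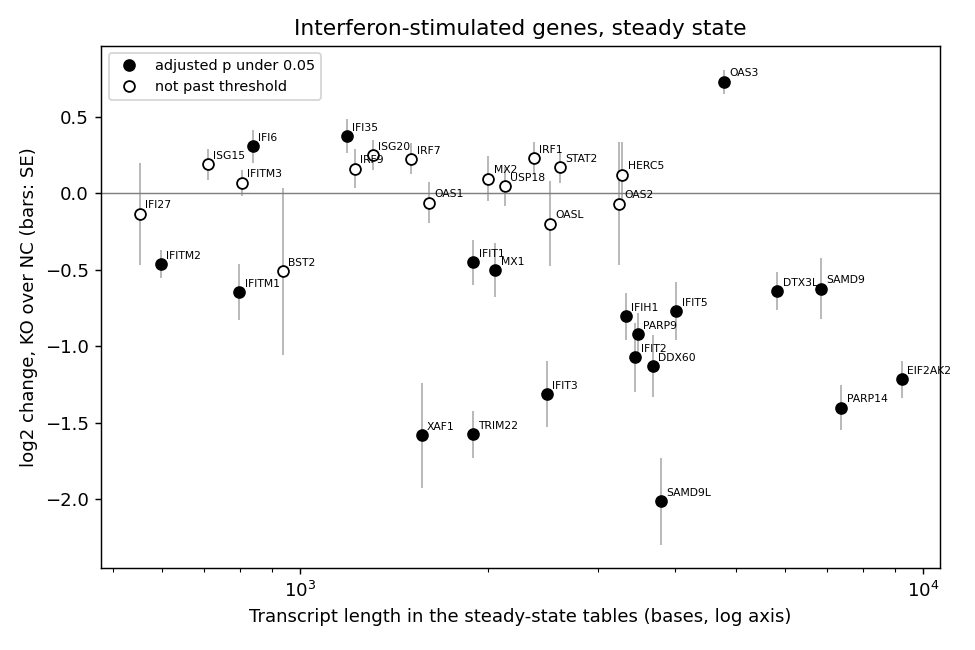
Log2 change of KO over NC at steady state, with bars for its standard error, against transcript length in bases on a log axis, for the 35 genes tested; filled points passed an adjusted p of 0.05. The genes from 3451 bases upwards are all filled and below 0 except OAS3, while among the shorter genes filled and open points are mixed.

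In the actinomycin D set most of the same genes were higher in libraries labelled KO before any treatment. At 0 h, 24 of 38 genes tested were higher in the libraries labelled KO, 7 were lower and 7 did not pass (edgeR quasi-likelihood test over 17715 genes). Over all genes the labels differed widely, with 35.5% higher, 31.6% lower and 67.1% past the threshold in either direction. The median log2 difference of KO over NC labels was 1.25 over the 38 genes and 0.06 over all genes. Libraries labelled KO held 1142 to 1503 CPM summed over the 39 genes (median 1443, n = 10), against 873 to 1148 CPM in those labelled NC (median 1059, n = 10), and the ranges met. Scaled to 83 ribosomal protein genes, the median of all genes shifted to 0.50 and the split of all calls at 0 h became 8798 higher and 3521 lower, against 6287 and 5600 with trimmed-mean scaling. On the authors' molecule scale the median was 0.79 and the split 10216 and 2414. The 38 ISGs split 26 higher and 6 lower with ribosomal scaling, and 28 and 6 on the molecule scale. Under each of the 3 scalings, 26 of the 38 lay above the median of all genes. A change of scaling moves all genes by a similar amount, so this count could hardly change and is no separate check.

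Of the IFIT genes and the sensors, which fell at steady state, all but IFIT5 were higher in the KO label. IFIT1 was at 177 and 178 CPM in libraries labelled KO, against 7.62 and 6.24 CPM in those labelled NC, a log2 difference of 4.67 (SE 0.09, edgeR adjusted p = 1.14e-35). IFIT2 was at 123 and 120 CPM in the KO label and 2.73 and 3.0 CPM in the NC label, a log2 difference of 5.40 (SE 0.13, edgeR adjusted p = 7.32e-33). IFIT3 differed by 3.95 (SE 0.14), at 73.7 and 77.3 CPM in the KO label against 4.35 and 5.40 CPM in the NC label. The values within a label lay close together and the labels were more than 10-fold apart. IFIT5, the last gene of the cluster, did not follow: it was at 7.73 and 6.66 CPM in the KO label and 7.17 and 9.76 CPM in the NC label, and did not pass (log2 difference -0.23, SE 0.19, edgeR adjusted p = 0.298); on the molecule scale its sign turned, to 0.55 (limma adjusted p = 0.0353). IFIH1 was at 35.7 and 31.9 CPM in the KO label and 1.70 and 1.6 CPM in the NC label (log2 difference 4.35, SE 0.33, edgeR adjusted p = 2.12e-10). DDX60 differed by 3.62 (SE 0.29), whereas EIF2AK2, at 152 and 168 CPM against 139 and 143 CPM, differed by 0.18 (SE 0.06, edgeR adjusted p = 0.00869), a call lost without KO replicate 2 or NC replicate 1.

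Modifier, OAS, MX and effector genes at 0 h ran from strongly higher to strongly lower. ISG15 was at 159 and 161 CPM in the KO label and 18.2 and 15.7 CPM in the NC label (log2 difference 3.23, SE 0.09, edgeR adjusted p = 7.54e-31). HERC5 was higher by 1.82 (SE 0.14), while its neighbour HERC6, 14021 bases away on chromosome 4, differed by -2.82 on the log2 scale (SE 0.51), at 0.382 and 0.430 CPM in the KO label and 2.91 and 2.86 CPM in the NC label. The OAS family split in the same manner. OASL, a relative of OAS that lacks the enzyme activity, was at 30.1 and 34.8 CPM in the KO label and 2.29 and 2.77 CPM in the NC label. OAS2 was at 1.81 and 3.54 CPM in the KO label, against 0.0897 and 0.0939 CPM in the NC label (log2 difference 4.78, SE 0.82, edgeR adjusted p = 2.22e-06). OAS1 and OAS3 showed the opposite order, with OAS3 at 77.6 and 82.5 CPM in the KO label and 230 and 225 CPM in the NC label (log2 difference -1.51, SE 0.06, edgeR adjusted p = 1.74e-25) and OAS1 differing by -1.81 (SE 0.20). MX2, a GTPase that restricts lentiviruses, was at 18.4 and 20.8 CPM in the KO label and 0 and 0.469 CPM in the NC label (log2 difference 6.38, SE 0.42, edgeR adjusted p = 3.42e-15). The size of the MX2 difference rests on few counts in the NC label and ran from 5.37 to 11.8 under the alternative settings. Effectors showed the same contrast between neighbours. SAMD9 was at 29.5 and 25.8 CPM in the KO label and 0.448 and 1.41 CPM in the NC label (log2 difference 4.91, SE 0.25, edgeR adjusted p = 1.28e-20), whereas its neighbour SAMD9L differed by 0.03 (SE 0.65). RSAD2 (viperin), which makes a chain-terminating nucleotide, was at 1.10 and 1.67 CPM in the KO label and 0.179 and 0 CPM in the NC label (log2 difference 3.84, SE 1.07, edgeR adjusted p = 0.00177). XAF1 was at 1.15 and 1.83 CPM in the KO label and had 0 counts in both libraries of the NC label, so it was at least 10.8-fold higher against a floor of 3 counts per library.

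BST2 stood out in the other direction. It lies at chr19:17513748-17516439 (hg19, − strand) and was at 0.668 and 1.34 CPM in libraries labelled KO and at 217.5 and 219 CPM in those labelled NC, a log2 difference of -7.78 (SE 0.16, edgeR adjusted p = 1.24e-29). At steady state, by comparison, no library of either genotype exceeded 1.17 CPM, and the 2 tables were normalised separately. The IFITM cluster on chromosome 11 was divided as well. IFITM2 was at 11.5 and 13.2 CPM in the KO label and 65.5 and 65.8 CPM in the NC label (log2 difference -2.41, SE 0.15, edgeR adjusted p = 3.75e-16). IFITM3, the other highly abundant gene of that cluster, was at 199 and 203 CPM in the KO label and 167 and 175 CPM in the NC label (log2 difference 0.24, SE 0.05, edgeR adjusted p = 5.55e-05). IFITM1, at 1.10 and 0.913 CPM in the KO label and 1.30 and 1.08 CPM in the NC label, did not pass (log2 difference -0.24, SE 0.64, edgeR adjusted p = 0.757).

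All 4 transcription factors were higher in the KO label at 0 h. STAT2 was at 73.2 and 59.1 CPM in the KO label and 44.6 and 44.7 CPM in the NC label, a log2 difference of 0.57 (SE 0.09, edgeR adjusted p = 6.35e-07). IRF7, which drives interferon genes and is itself an ISG, was at 15.7 and 9.13 CPM in the KO label and 4.71 and 2.16 CPM in the NC label, a log2 difference of 1.85 (SE 0.30, edgeR adjusted p = 1.51e-06). Both libraries labelled KO lay above both labelled NC in these genes and in the next 2. IRF1, at 4.91 and 4.46 CPM in the KO label and 1.34 and 1.13 CPM in the NC label, differed by 1.92 (SE 0.27, edgeR adjusted p = 4.70e-08). IRF9, at 8.78 and 6.93 CPM in the KO label and 5.51 and 5.02 CPM in the NC label, differed by 0.58 (SE 0.23, edgeR adjusted p = 0.0239). The IRF9 call was lost without KO replicate 1, NC replicate 1 or NC replicate 2, and those of TRIM22 (2.38, SE 0.90) and USP18 (-0.73, SE 0.27) were lost on leaving out single 0 h libraries as well. On the molecule scale USP18 was at 0.0080. The groups did not overlap for 25 genes higher in the KO label and 7 lower (over all genes 42.9% and 39.1%).

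The label difference held over the time course for most genes. Taken over the mean of all 5 times, 25 genes were higher in libraries labelled KO, 9 were lower and 4 did not pass, with 41.6% of all genes higher, 41.6% lower and 83.1% in either direction. Every library labelled KO lay above every one labelled NC for 19 genes and below for 7 (19.4% and 18.7% of all genes). At 2 h 22 of 38 were higher and 10 lower in the KO label (33.8% and 35.3% of all genes, 69% in either direction), at 4 h 23 and 9 (31.9% and 38.3%, 70.2%), at 6 h 22 and 7 (37.4% and 34.9%, 72.3%) and at 8 h 22 and 8 (34.9% and 31.4%, 66.3%). Tested at each time apart, 19 were higher at all 5 times and 5 were lower at all 5. The share of all genes called at all 5 times is not given here, so these counts are not read as particular to the list. The 19 were STAT2, IRF7, ISG15, HERC5, IFIT1, IFIT2, IFIT3, OAS2, OASL, MX2, IFIH1, DDX60, PARP14, RSAD2, ISG20, SAMD9, XAF1, IFI6 and IFI44, and the 5 were IFITM2, BST2, OAS1, OAS3 and IFI35. Over 10 libraries each, IFIT1 ranged from 98.6 to 226 CPM (median 177) in the KO label and from 6.24 to 12.1 CPM (median 9.09) in the NC label. MX2 ranged from 12.1 to 25.2 CPM (median 18.9) in the KO label and from 0 to 0.469 CPM (median 0.0207) in the NC label, and BST2 from 0.214 to 1.72 CPM (median 0.878) in the KO label and from 134 to 242 CPM (median 205) in the NC label. None of these ranges met. IFIT5 and IFITM3 were called in both directions: the log2 difference of IFIT5 was -2.14 at 2 h and 0.82 at 6 h, and that of IFITM3 was 0.54 at 2 h and -0.37 at 6 h.

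Levels also moved between the labelled times, within each label. In libraries labelled KO, 18 of 38 genes differed among the 5 times (edgeR quasi-likelihood F test; 55.9% of all genes), and in libraries labelled NC 18 of 38 did (54.7% of all genes); 14 genes were shared. In the KO label 10 of the 18 were highest at 6 h and 11 were lowest at 8 h. In the NC label 6 of the 18 were highest at 4 h and 10 were lowest at 4 h. For the shared, highest and lowest genes no share over all genes is given here, so the timing is not read as particular to the list.

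IRF1, an unstable early-response transcript, moved most. In the KO label it was at 4.91 and 4.46 CPM at 0 h, 3.32 and 3.69 at 2 h, 9.79 and 7.79 at 4 h, 41.3 and 35.9 at 6 h and 4.02 and 5.15 at 8 h (edgeR adjusted p = 2.58e-20). In the NC label it was at 1.34 and 1.13 CPM at 0 h, 2.04 and 2.20 at 2 h, 9.88 and 7.44 at 4 h, 1.24 and 1.19 at 6 h and 1.68 and 1.79 at 8 h (edgeR adjusted p = 1.00e-14). The mean was therefore 8.24-fold that of 0 h at 6 h in the KO label, and 7.0-fold at 4 h in the NC label. IFIT2 reached 219 and 222 CPM at 6 h in the KO label, 1.81-fold its 0 h mean, and 9.13 and 10.6 CPM at 4 h in the NC label, 3.44-fold (edgeR adjusted p = 1.19e-21 in the KO label and 2.26e-14 in the NC label). IFIT5 had the same peaks, 2.94-fold at 6 h in the KO label and 3.99-fold at 4 h in the NC label (edgeR adjusted p = 2.09e-14 and 5.29e-15). So did DTX3L, 1.58-fold and 2.51-fold (edgeR adjusted p = 4.99e-12 and 1.10e-12). At 8 h these 4 genes were at 0.571 to 0.979 of their 0 h means in the KO label and at 0.806 to 1.41 of them in the NC label, all below their peaks. IFIT1 peaked at 6 h in the KO label, at 226 and 215 CPM, and was at 98.6 and 100.6 CPM at 8 h, 0.562 of its 0 h mean (edgeR adjusted p = 1.66e-18). In that label IFIT2 and OASL at 8 h were also below 0 h, at 0.571 and 0.467 of it. Other genes dipped at those times: IFITM3 was at 0.628 of its 0 h mean at 6 h in the KO label and at 0.655 at 4 h in the NC label (edgeR adjusted p = 3.17e-18 and 1.69e-16), and OAS3 at 0.711 and 0.665 (1.40e-11 and 1.29e-13 by the same test). SOCS3, a feedback inhibitor that is also an early-response gene, averaged 78.7 CPM at 6 h in the KO label and 5.21 to 7.25 CPM at its other times, and 27.4 CPM at 4 h in the NC label and 5.82 to 6.72 CPM at its other times. The times with the highest IRF1 and SOCS3 thus lay in the middle of the course, and whether the labelled hours are the true hours was not tested. Without the libraries labelled NC 4 h and KO 6 h, 16 of 38 genes differed among times in the KO label and 10 of 38 in the NC label, beside 41.8% and 39.3% of all genes.

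**Figure D4:**
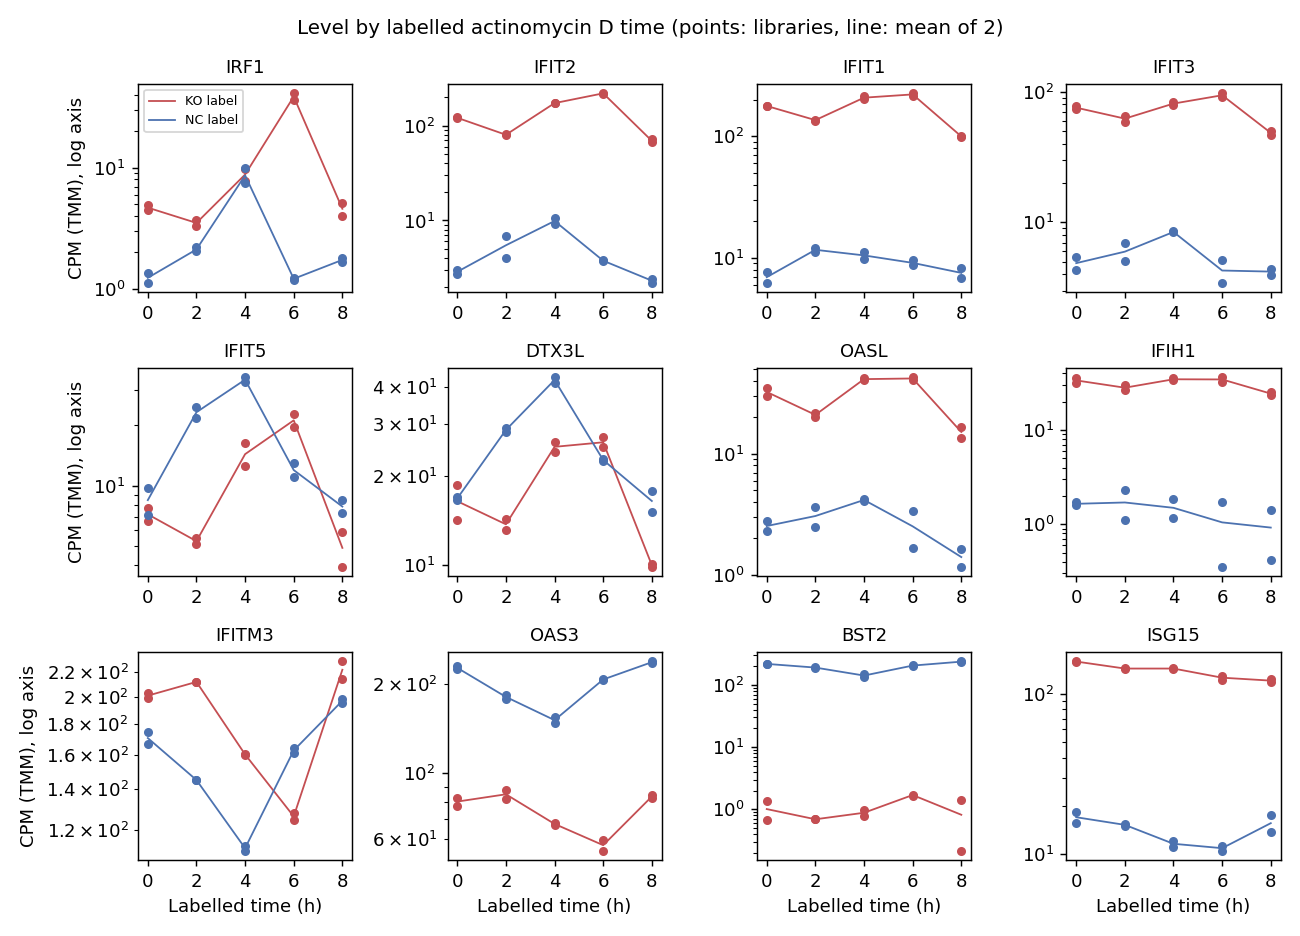
Level (CPM, log axes with separate ranges) of 12 interferon-stimulated genes against labelled hours of actinomycin D, with points for libraries and lines through the mean of 2, in libraries labelled KO (red) and NC (blue). IRF1, IFIT2, IFIT5 and DTX3L peak at 6 h in the KO label and 4 h in the NC label, IFITM3 and OAS3 dip there, and the labels stay apart throughout in IFIT1, BST2 and ISG15.

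No gene of the list had a slope over labelled time that passed the threshold. A straight line through the log2 levels gave 0 calls of 38 in the KO label, in the NC label and for the difference of the slopes (edgeR quasi-likelihood test; 0% of all 17715 genes). These levels are relative to the library total, so a loss shared by most transcripts would not show as a slope. With this scaling the median log2 slope over all genes was -0.0022 per h in the KO label and -0.0014 in the NC label. At an unadjusted p under 0.05 there was 1 gene in the KO label (ISG15, log2 slope -0.05 per h, SE 0.02), 2 in the NC label (IFI44 and IRF9) and 1 for the difference (IRF9). Among 38 tests at this threshold, counts this small can arise without any change, so these genes are not singled out. On the authors' molecule scale, tested with limma, 24 genes fell with time in the KO label and 15 in the NC label, beside 53.2% and 44.6% of all genes, and 0 passed for the difference. The median slope there was -0.18 log2 units per h for these genes in the KO label and -0.14 in the NC label, against -0.16 and -0.14 over all genes. Low counts limit a comparison of the 2 labels here: XAF1 had 0 counts in each library labelled NC and could show no slope. The counts and medians of the 2 labels are therefore not compared.

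Interferon ligands differed between the actinomycin D labels, where 3 of the 4 ligand genes tested at 0 h were higher in the KO label and IFNE did not pass. At 0 h the type III genes IFNL1, IFNL2 and IFNL3 averaged 18.9, 7.55 and 9.86 CPM in the KO label and had 0 counts in both libraries of the NC label, which makes them at least 137-fold, 54.9-fold and 71.7-fold higher against a floor of 3 counts per library. Over 10 libraries IFNL1 ranged from 9.60 to 24.0 CPM in the KO label and from 0 to 0.282 CPM in the NC label. IFNL2 and IFNL3 are near-identical, so their reads may be shared. At steady state IFNL1 was at 0.0488 to 0.115 CPM in KO libraries and 0 to 0.129 CPM in NC libraries, below the filter for testing, and IFNB1 had at most 4 counts in any library of either set. Of 13 ligand genes 1 was tested at steady state, IFNE, which fell by 2.01 on the log2 scale (SE 0.44), at 0.0691 to 0.230 CPM in KO libraries against 0.477 to 0.593 CPM in NC libraries.

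Receptors, kinases, sensors and other ISGs were compared in the same fits, in which 24.4% of all genes rose and 26.3% fell at steady state, and 35.5% were higher and 31.6% lower in the KO label at 0 h. The list of 10 receptor and kinase genes also held the transcription factor STAT3. At steady state 4 of the 10 fell and 2 rose: JAK2 (-0.98, SE 0.19), IFNAR1 (-0.75, SE 0.13), IFNGR1 (-0.49, SE 0.12) and JAK1 (-0.31, SE 0.08) fell, and IFNLR1 (0.64, SE 0.20) and STAT3 (0.23, SE 0.09) rose. IFNAR2 (-0.20, SE 0.08, edgeR adjusted p = 0.0588) and TYK2 (0.26, SE 0.11, edgeR adjusted p = 0.0783) did not pass. At 0 h of the actinomycin D set 7 of the 10 were higher in the KO label and 1, JAK2 (-0.87, SE 0.18), was lower. IFNAR1 differed by 0.57 (SE 0.07), IFNAR2 by 0.78 (SE 0.15), JAK1 by 0.94 (SE 0.05) and IFNGR2 by 1.82 (SE 0.09), and TYK2 did not pass (-0.02, SE 0.07). Of 12 further sensing genes tested at steady state 3 fell and 3 rose, and of 13 tested at 0 h 7 were higher and 3 lower. RIGI, the sensor of RNA with a free triphosphate end, was at 22.1 to 38.5 CPM in KO libraries and 54.0 to 55.1 CPM in NC libraries at steady state (log2 change -0.90), and at 0 h it was higher in the KO label by 4.41 (SE 0.15). Of 9 feedback regulators 1 rose and 3 fell at steady state, and 3 were higher and 4 lower at 0 h. The phosphatase PTPN11 was lower in both (-0.82, SE 0.14 at steady state; -0.75, SE 0.05 at 0 h). SOCS1, the inhibitor of JAK kinases, did not pass at steady state (0.32, SE 0.22) or at 0 h (-0.55, SE 1.39), nor did SOCS3 (0.10, SE 0.09; 0.0043, SE 0.19). Of 28 other ISGs tested at steady state 3 rose and 8 fell, GBP3 (-1.23, SE 0.18) and NMI (-0.92, SE 0.14) among them, and of 29 tested at 0 h 20 were higher and 7 lower. APOL6, which fell at steady state (-0.80, SE 0.11), had 0 counts in both NC-labelled libraries at 0 h and was at least 192-fold higher in the KO label.

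The order of levels within the list is given per kilobase of transcript. At steady state ISG15 and IFITM3 led, at 142.5 and 135 CPM per kb in KO libraries and 125 and 129 CPM per kb in NC libraries, well ahead of IRF1 at 27.3 and 23.3 CPM per kb. At 0 h the libraries labelled KO had IFITM3 at 329, ISG15 at 251 and IFIT1 at 38.1 CPM per kb. In the libraries labelled NC, IFITM3 at 279 was followed by BST2 at 218 and IFITM2 at 89.9 CPM per kb. At least 1 CPM was reached by 28 of 39 genes in steady-state KO libraries and 30 in NC libraries, and by 36 in the KO label and 29 in the NC label at 0 h.

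Set side by side, the 2 sets gave opposite directions for 12 of the 35 genes tested in both. Over all 14296 genes tested in both, 12.6% fell at steady state and were higher at 0 h, and 10.2% rose and were lower. The 2 sets share no library, and the difference between them was not tested. Of the 17 genes that fell at steady state, 10 were higher in the KO label at 0 h, namely IFIT1, IFIT2, IFIT3, IFIH1, EIF2AK2, DDX60, PARP14, TRIM22, SAMD9 and XAF1. Over all genes tested in both sets, 1804 of the 3877 that fell at steady state were higher in the KO label at 0 h (46.5%), so the split is not read as particular to these genes. Another 6 did not pass at 0 h, beside 23.9% of all genes that fell at steady state. Only IFITM2 of the 17 was lower in both sets, beside 29.6% of all genes that fell. Of the 3 that rose at steady state, OAS3 and IFI35 were lower in the KO label at 0 h and IFI6 was higher in both; over all genes 37.5% of those that rose at steady state were lower at 0 h. A further 11 genes that did not pass at steady state were higher in the KO label at 0 h, ISG15 among them, and USP18, BST2 and OAS1 were lower. Only IFI27 passed in neither set among the 35 genes tested in both. For the genes that did not pass at steady state no share over all genes is given here. Their counts are therefore not read as particular to the list.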

How the data were processed

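The genes, their groups by role and the pathway lists were chosen with earlier results of these data known. One gene of the pathway lists is not reported here and is left out of their counts. In the steady-state set the values were the authors' deposited expected counts per gene and library, from RSEM per the file headers; 10.25% of them were not whole, and they were rounded. In the actinomycin D set they were the authors' deposited read counts per gene, with a deposited log2 molecule value beside them that is a straight line of the log2 RPKM within each library. STAR, RSEM, Bowtie2, deepTools and the build hg19 are named in the submitters' processing notes; no source used here gives strand use, annotation release or aligner settings. Symbols came from Ensembl identifiers and RefSeq synonyms (45 PAR_Y rows were added to their partners, and 37 mitochondrial genes in the actinomycin D set were all at 0 counts).

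Genes were filtered with filterByExpr, scaled by trimmed means and tested with edgeR 4.0.16 (robust quasi-likelihood F test, R 4.3.3) across 17240 genes (6 libraries) and 17715 genes (20 libraries, 1 fit), with Benjamini-Hochberg adjustment and a threshold of 0.05. A standard error is the log2 change over the square root of F. Alternatives were DESeq2 1.42.0, RLE scaling, no filter, ribosomal scaling, offsets following length, the molecule scale as log2(value + 16384) with limma 3.58.1, a replicate block and leaving out libraries. The scripts were tested on simulated data. Same-numbered libraries did not deviate together (r from -0.11 to 0.06), so no pairing was assumed. No pair of replicates was as alike as sampling noise (chi-square per degree of freedom from 3.81 upwards). Given in full were up to 10 genes of largest log2 change past the threshold with at least 1 CPM in a group (in each comparison of KO with NC, at steady state and at 0 h), the 4 transcription factors, the 3 IFITM genes and up to 6 genes of smallest p over time in each label; others were chosen after their values were seen. Depth limits genes of low counts, and floors of 3 counts cover counting error only.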

Additional observations from a re-analysis of the deposited data

Results flagged for a closer look

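For 12 genes every library labelled KO lay on one side of every library labelled NC in the steady-state set and on the other side at 0 h of the actinomycin D set, out of 35 genes tested in both. Over all 14296 genes tested in both sets 29.7% lay on opposite sides in this way, so the count is near that of all genes. The difference between the sets was not tested, and the sets share no library. On the log2 scale, actinomycin D 0 h first and steady state second, the differences of KO over NC were 3.62 and -1.13 for DDX60, 0.18 and -1.22 for EIF2AK2, 4.35 and -0.81 for IFIH1, 4.67 and -0.45 for IFIT1, 5.40 and -1.07 for IFIT2 and 3.95 and -1.31 for IFIT3. They were 0.89 and -0.50 for MX1, 0.90 and -1.40 for PARP14 and 2.38 and -1.58 for TRIM22. For XAF1 they were 8.08 and -1.58, where 8.08 is a fitted value that depends on the prior count because both libraries labelled NC had 0 counts. OAS3 and IFI35 went the other way, with -1.51 and 0.73 for OAS3 and -1.29 and 0.37 for IFI35. MX1 did not pass the test at 0 h.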

How the results depend on the processing

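The members' calls were recomputed under each alternative. At steady state the count of genes that rose was 3 and moved to 1 with offsets following length; leaving out 1 library gave 1 to 8 that rose and 14 to 16 that fell, the 8 coming without KO replicate 1, where STAT2, IRF1, IRF7, ISG15 and ISG20 were called higher and MX1 was not called. Without KO replicate 3, NC replicate 1 or NC replicate 3, 1 gene rose. DESeq2, RLE scaling and no filter gave 3 that rose and 16 to 17 that fell. At 0 h, leaving out 1 library gave 21 to 23 higher and 6 to 7 lower; over the mean of 5 times it gave 25 and 9 each time. Differences among times numbered 16 to 21 in the KO label and 16 to 20 in the NC label on leaving out 1 library, 32 in the KO label on the molecule scale, and 10 in the NC label without the libraries labelled NC 4 h and KO 6 h. The share of all genes that differed on the molecule scale is not given here, so the 32 are not read as particular to the list. Slopes of levels relative to the library total gave 0 calls on leaving out any library. On the molecule scale, which is not relative to that total, 24 (KO label) and 15 (NC label) genes fell. The cause was not tested further. Signs turned for DTX3L at 0 h (0.76 on the molecule scale, 0.42 with ribosomal scaling), IFIT5 at 0 h (0.55 on the molecule scale), USP18 at 0 h (0.0080 on the molecule scale) and PARP9 over the mean of 5 times (0.33 on the molecule scale, 0.34 with ribosomal scaling). The replicate numbers name libraries only; with the replicate number as a block, 3 genes rose and 16 fell at steady state, and 24 were higher and 7 lower at 0 h, MX1 being the gene no longer called (edgeR adjusted p = 0.0582). Low counts limit HERC6, RSAD2, IFI44, IFI44L, OAS2 and XAF1, and MX2 in the NC label.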
